A study of Rattus norvegicus with 8 samples.

Results

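The complement genes examined were C1qa, C1qb, C1qc, C1r, C1s, C2, C3, Cfb and Serping1, 9 symbols matched to the gene names in the count files. They matched 10 of the 32623 rat Ensembl genes listed, because Cfb stands there under 2 identifiers. Of the 9, 8 reached the minimum level for testing and Cfb did not, and 11682 genes were tested in all. Outflow veins of arteriovenous fistulas (AVFs) from Sprague Dawley rats of both sexes were sequenced in bulk 21 days after surgery. Each AVF joined the epigastric vein end-to-side to the femoral artery, and a bilayer nanofiber scaffold (PLA outside, PLGA against the adventitia) was wrapped around the vein. In the BAPN group (4 libraries, 3 from females and 1 from a male) the scaffold carried β-aminopropionitrile, an inhibitor of lysyl oxidases, the enzymes that crosslink collagen and elastin. In the vehicle group (4 libraries, 2 from females and 2 from males) it carried no drug, so both groups had a wrapped fistula and no group was left without a scaffold or surgery. The ages of the rats are not given in the sources used here, and the methods assign 8 rats to sequencing, so each library was counted as 1 rat.

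Complement is a cascade of plasma and tissue proteins that tags surfaces for phagocytes and can end in a pore through a membrane. The classical route opens when C1q, built from the chains A, B and C, binds antibody, pentraxins or dying cells and activates the proteases C1r and C1s bound to it. C1s then cuts C4 and C2 into the enzyme that cleaves C3, the alternative route builds its own C3-cleaving enzyme with factor B (Cfb), and C1 inhibitor (Serping1) blocks C1r and C1s. C1q is known mainly as a product of macrophages, whereas outside the liver fibroblasts and endothelial cells are known sources of C1r, C1s and C1 inhibitor. The question here was whether BAPN and vehicle veins differed in these genes, with the C1q chains set against C1r, C1s and the regulators.

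The libraries held 45039451 to 52241007 counts on genes in the BAPN group and 19548203 to 22442050 in the vehicle group. The smallest BAPN library was 2.01 times the largest vehicle library, so depth separated the groups completely, and any technical difference that ran along with depth cannot be told apart from the effect of BAPN. Depth was ample for the tested members, since C2, the least counted of them, had 470 to 3041 reads per library. Levels are given in CPM, the count relative to the TMM-scaled library size, and fold changes as the log2 of BAPN over vehicle from edgeR. Standard errors (SE) and 95% intervals came from limma-voom. FDR is the Benjamini-Hochberg adjusted p over all 11682 tested genes, and a gene was called at an FDR below 0.05. CPM is not corrected for transcript length, so levels of different genes were not compared as amounts, and high or low CPM below means reads, not molecules. RNA from whole veins cannot tell fewer cells of a type from less RNA per cell.

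C1qa, C1qb and C1qc are neighbours in the rat genome, with C1qc between the other two and no protein-coding gene in the gaps (RefSeq, assembly GRCr8). C1r lies between C1rl and C1s, and C2 lies beside Cfb. The promoters of C1qa and C1qb are printed because these chains had closely similar profiles over the libraries, and that of C1r because it stands for the proteases set against them. RefSeq promoter sequences of 300 bases (250 before and 50 after the gene start) were at hand for C1qa, C1qb, C1r and C3, that is 4 of the 9 genes, and not for C1qc, C1s, C2, Cfb and Serping1. Each is written 5′ to 3′ on the gene's own strand in GRCr8. The capitals mark matches on either strand to an interferon-gamma-activated sequence (GAS, TTCNNNGAA) or to the core that the myeloid factor PU.1 binds (GAGGAA, which reads TTCCTC on the other strand). The other motif searched was an interferon-stimulated response core (GAAANNGAA), whose letters can overlap those of the other 2.
C1qa promoter, chr5:154419884-154420183, minus strand: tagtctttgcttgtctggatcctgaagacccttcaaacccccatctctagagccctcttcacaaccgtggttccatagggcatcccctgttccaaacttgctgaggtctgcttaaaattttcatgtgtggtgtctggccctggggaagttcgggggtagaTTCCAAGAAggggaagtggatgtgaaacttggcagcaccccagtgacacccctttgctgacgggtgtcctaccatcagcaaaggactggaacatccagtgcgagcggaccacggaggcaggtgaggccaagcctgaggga
C1qb promoter, chr5:154407778-154408077, minus strand: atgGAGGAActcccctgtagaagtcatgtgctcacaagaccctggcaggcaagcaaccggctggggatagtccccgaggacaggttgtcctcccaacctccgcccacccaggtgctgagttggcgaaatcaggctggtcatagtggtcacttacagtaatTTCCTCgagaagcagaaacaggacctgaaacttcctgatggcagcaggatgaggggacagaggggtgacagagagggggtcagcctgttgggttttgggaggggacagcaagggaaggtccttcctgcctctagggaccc
C1r promoter, chr4:159098763-159099062, plus strand: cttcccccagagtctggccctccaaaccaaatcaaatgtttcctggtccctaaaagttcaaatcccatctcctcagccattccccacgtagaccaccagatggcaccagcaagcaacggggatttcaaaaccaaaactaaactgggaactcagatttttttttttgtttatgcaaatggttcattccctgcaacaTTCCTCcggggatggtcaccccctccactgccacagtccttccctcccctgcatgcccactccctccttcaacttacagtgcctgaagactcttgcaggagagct

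The C1qa window held 1 GAS match, TTCCAAGAA, which began 90 bases before the gene start. The C1qb window held 2 PU.1 cores, 1 beginning 247 bases before the start and 1, on the other strand, beginning 90 bases before it. In C1r there was 1 PU.1 core on the other strand, 55 bases before the start. The C3 window at chr9:2201290-2201589 (minus strand) held none of the 3 motifs, and no member's window held the interferon-stimulated response core. Among 33469 rat promoters of the same length, 8.87% held the GAS, 9.71% the interferon-stimulated core and 27.6% the PU.1 core, so such matches are common. They are matches of letters only, and no binding was measured.

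None of the 8 tested complement genes passed the test between BAPN and vehicle veins. edgeR called 0 of 8, against a background of 16.8% of all tested genes (7.5% higher and 9.25% lower with BAPN). No member reached an unadjusted p below 0.05 in edgeR, and C1qb alone did in DESeq2, which also called 0 of 8 after adjustment where it called 27.4% of all genes. The 2 groups overlapped for every one of the 8, whereas among all tested genes 12.7% had every BAPN library above every vehicle library and 11.9% the reverse. The log2 fold changes ran from -0.24 for C1r to 0.71 for C3, 5 above 0 and 3 below, with a median of 0.28 beside 0.02 over all tested genes. The 95% intervals all spanned 0 and reached from -0.92 (C2) to 1.73 (C3), so changes of up to these sizes could not be told from none.

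**Figure D1:**
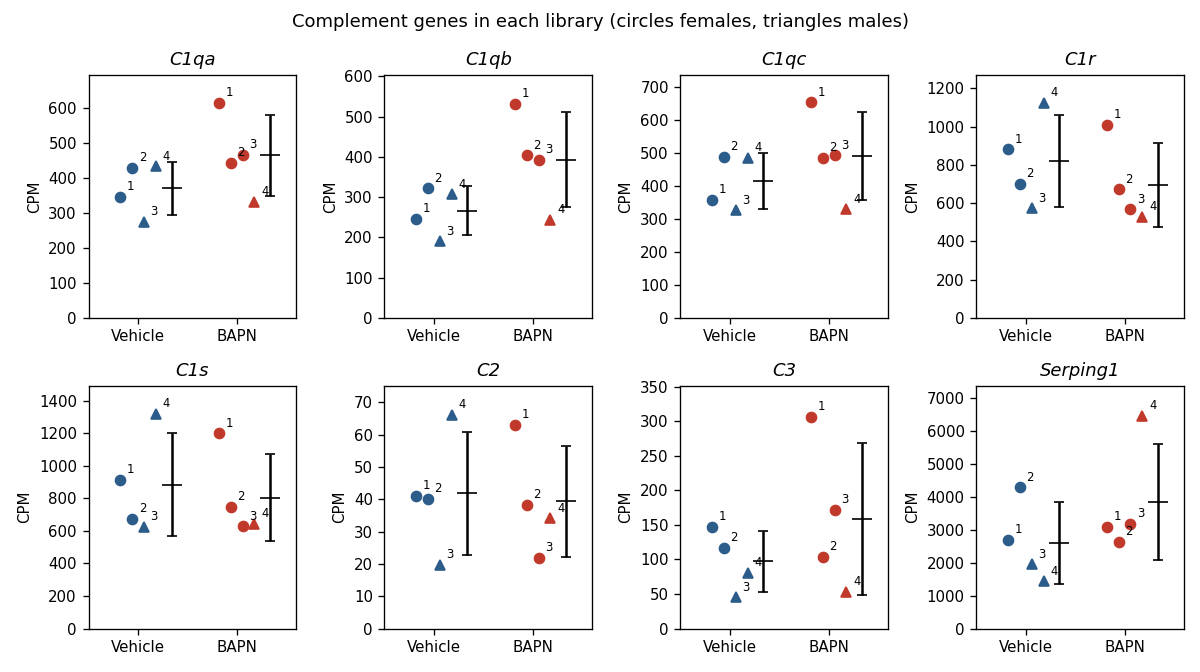
CPM of the 8 tested complement genes in each vehicle (blue) and BAPN (red) library, 1 panel per gene with its own axis starting at 0. Numbers are replicate labels, circles are females, triangles are males, and the bars beside the points are the mean ± SD of 4 libraries. The groups overlap in every panel, BAPN 1 is highest of all for C3 at 307 CPM, and BAPN 4 stands far above the rest for Serping1 at 6454 CPM.

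C1qa encodes the A chain of C1q. It measured 616, 445, 468 and 333 CPM across BAPN 1 to 4 and 347.5, 431, 275 and 434 CPM in vehicle 1 to 4. BAPN 1 to 3 lay above every vehicle library, and BAPN 4, the male, lay below vehicle 1, 2 and 4. The means were 466 ± 116 and 372 ± 76.0 CPM (SD, n = 4 each), a log2 fold change of 0.33 (SE 0.22, 95% interval -0.17 to 0.80, edgeR FDR = 0.306, exact two-sided permutation p = 0.229). It was 0.16 without BAPN 1 and 0.45 without BAPN 4.

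C1qb encodes the B chain and came closest to the threshold among the members. Its levels were 532, 404, 393 and 243 CPM across BAPN 1 to 4 and 246, 322, 190.0 and 307 CPM in vehicle 1 to 4. The pattern was that of C1qa, with BAPN 1 to 3 above all vehicle libraries and BAPN 4 lower than vehicle 1, 2 and 4. At 393 ± 118 against 266 ± 60.6 CPM (SD, n = 4 each), the log2 fold change was 0.56 (SE 0.25, 95% interval -0.03 to 1.09), with an unadjusted p of 0.0504 and an FDR of 0.140 in edgeR, an FDR of 0.0987 in DESeq2 and an exact permutation p of 0.171. Without BAPN 4 the log2 fold change was 0.72 and the edgeR FDR 0.0679, and without BAPN 1 it was 0.38.

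C1qc, the gene of the C chain, measured 655, 487, 494 and 329 CPM across BAPN 1 to 4 and 358, 489, 326 and 485 CPM in vehicle 1 to 4. Here BAPN 2 and 3 stood level with vehicle 2 and 4, and BAPN 1 stood well above both pairs. The log2 fold change was 0.24 (SE 0.22, 95% interval -0.28 to 0.72, edgeR FDR = 0.459, exact permutation p = 0.371), from means of 491 ± 133 and 415 ± 84.5 CPM (SD, n = 4 each). It moved from 0.07 without BAPN 1 to 0.38 without BAPN 4.

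The 3 chains followed each other over the libraries. Each had its highest value in BAPN 1, and their own log2 ranges over the 8 libraries were 1.17 (C1qa), 1.49 (C1qb) and 1.00 (C1qc). The ratio of C1qb to C1qc within a library, chosen after the values were seen and given with no test, was -0.30, -0.27, -0.33 and -0.44 on the log2 scale across BAPN 1 to 4 and -0.54, -0.60, -0.78 and -0.66 in vehicle 1 to 4. All BAPN libraries thus lay above all vehicle libraries in C1qb relative to C1qc, with means of -0.33 ± 0.07 and -0.65 ± 0.10 (SD, n = 4 each). How many ratios of other gene pairs separate the groups was not counted. Among single tested genes, 12.7% had every BAPN library above every vehicle library. The log2 ratios of C1qb to C1qa (-0.46 to -0.14 in BAPN, -0.53 to -0.42 in vehicle) and of C1qa to C1qc (-0.13 to 0.02 and -0.25 to -0.04) overlapped between the groups. A ratio between 2 genes also holds their transcript lengths, so its difference between libraries can be read and its sign cannot.

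**Figure D2:**
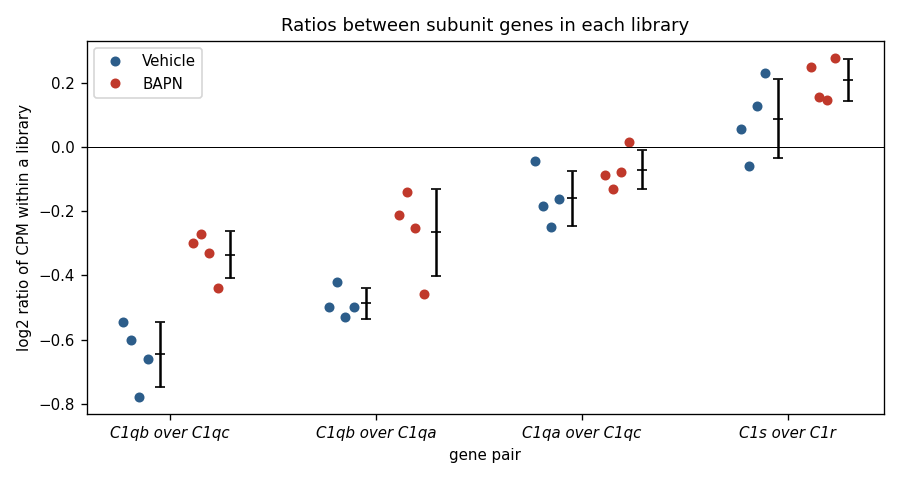
Log2 ratio of CPM between pairs of subunit genes within each library (vertical axis) for 4 gene pairs (horizontal axis), with vehicle in blue, BAPN in red and bars for the mean ± SD of 4 libraries. Only C1qb over C1qc separates the groups, at -0.44 to -0.27 in BAPN and -0.78 to -0.54 in vehicle, and the pairs were chosen after the values were seen.

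C1r encodes the protease that C1q binding sets off first. Levels were 1009, 671, 567 and 529 CPM across BAPN 1 to 4 and 881, 702, 572 and 1123.5 CPM in vehicle 1 to 4. Vehicle 4 and BAPN 1 were the highest, and the other libraries of both groups lay between 529 and 881 CPM. The means were 694 ± 218 and 819.7 ± 239 CPM (SD, n = 4 each), with a log2 fold change of -0.24 (SE 0.26, 95% interval -0.84 to 0.34, edgeR FDR = 0.540, exact permutation p = 0.429). Leaving out BAPN 1 gave -0.48 and leaving out vehicle 4 gave -0.05, so its size depended on both.

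C1s, the protease that C1r activates and that cuts C4 and C2, measured 1199.5, 749, 628 and 642 CPM across BAPN 1 to 4 and 916, 674, 625 and 1319 CPM in vehicle 1 to 4. The order of the libraries was much the same as for C1r, with vehicle 4 and BAPN 1 on top. The means of 805 ± 269 and 883 ± 317 CPM (SD, n = 4 each) gave a log2 fold change of -0.13 (SE 0.29, 95% interval -0.78 to 0.52, edgeR FDR = 0.765, exact permutation p = 0.743). The sign turned when vehicle 4 was left out (0.12) and in females alone (0.11), so no direction is given for C1s. The log2 ratio of C1s to C1r stayed between -0.06 and 0.28 over the 8 libraries, while C1r and C1s themselves ranged over 1.09 and 1.08.

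The contrast between C1q and its proteases was taken as the log2 of the summed CPM of the 3 chains over the summed CPM of C1r and C1s. It was -0.29, -0.09, 0.18 and -0.37 across BAPN 1 to 4 and -0.92, -0.15, -0.60 and -0.99 in vehicle 1 to 4. Of the vehicle libraries, 1, 3 and 4 lay below every BAPN library, and vehicle 2 lay among them. The means were -0.14 ± 0.25 and -0.66 ± 0.38 (SD, n = 4 each), a difference of 0.52 with the higher C1q share in BAPN veins, which stayed between 0.41 and 0.69 when each library was left out in turn. As a score over chosen members it is a description and carries no test, and the groups overlapped.

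C2 is the part of the classical C3-cleaving enzyme that carries its active site. It measured 63.1, 38.4, 22.0 and 34.1 CPM across BAPN 1 to 4 and 41.1, 40.2, 19.8 and 66.0 CPM in vehicle 1 to 4. The groups covered nearly the same range, and as for C1r and C1s, BAPN 1 and vehicle 4 were the 2 highest. The log2 fold change was -0.09 (SE 0.39, 95% interval -0.92 to 0.83, edgeR FDR = 0.890, exact permutation p = 0.8, means 39.4 ± 17.3 and 41.8 ± 18.9 CPM, SD, n = 4 each). It was 0.23 without vehicle 4, 0.11 without BAPN 3 and 0.02 in females alone, so no direction is given for C2 either.

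C3, the protein on which all routes of activation meet, varied most among the members. It measured 307, 104, 172 and 53.0 CPM across BAPN 1 to 4 and 147, 116, 45.0 and 80.4 CPM in vehicle 1 to 4. BAPN held both the highest library and 1 of the lowest, and the SD within it, 109.9 CPM around a mean of 159 CPM, was larger than the gap to the vehicle mean of 97.2 ± 44.2 CPM (SD, n = 4 each). The log2 fold change of 0.71 had an SE of 0.52 and a 95% interval of -0.61 to 1.73 (edgeR FDR = 0.342, exact permutation p = 0.429). Without BAPN 1 it was 0.17, and without BAPN 4 it was 0.99. The sexes are unevenly spread over the groups, and C3 lay at 104 to 307 CPM in the 5 females and at 45.0 to 80.4 CPM in the 3 males, which do not overlap. That split was noticed in the values, was not tested, and was not seen for the other 7 tested members. In females alone the log2 fold change of C3 was 0.56.

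Cfb, factor B of the alternative route, was at 0 counts in all 8 libraries under both of its identifiers (ENSRNOG00000000419 and ENSRNOG00000051158). A count of 0 allows up to 3 counts per entry, which is 0.0592 to 0.0692 CPM in the BAPN libraries and 0.126 to 0.148 CPM in the vehicle libraries, for counting error only. How reads that fit 2 copies of a gene were counted is not given in the sources used here. Whether the 0 of Cfb comes from a lack of its RNA or from that counting was not tested.

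Serping1, C1 inhibitor, blocks C1r and C1s and also restrains kallikrein of the contact system. It measured 3082, 2632, 3180.3 and 6454 CPM across BAPN 1 to 4 and 2691, 4286, 1954 and 1429.5 CPM in vehicle 1 to 4. BAPN 4 held more than any other library and vehicle 4 the least, and vehicle 2 lay above BAPN 1 to 3. The means were 3837 ± 1761 and 2590.1 ± 1243 CPM (SD, n = 4 each), a log2 fold change of 0.57 (SE 0.39, 95% interval -0.29 to 1.47, edgeR FDR = 0.321, exact permutation p = 0.286). BAPN 4 decided its size, since the value without it was 0.19, while without vehicle 2 it was 0.92. In females alone the sign turned (-0.23). The difference between the treatment effect in males and that in females was 2.166 on the log2 scale (edgeR FDR = 0.197). This rests on 1 BAPN male, and across all 11682 genes 0 were called for it in edgeR, with 1442 at an unadjusted p below 0.05.

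**Figure D3:**
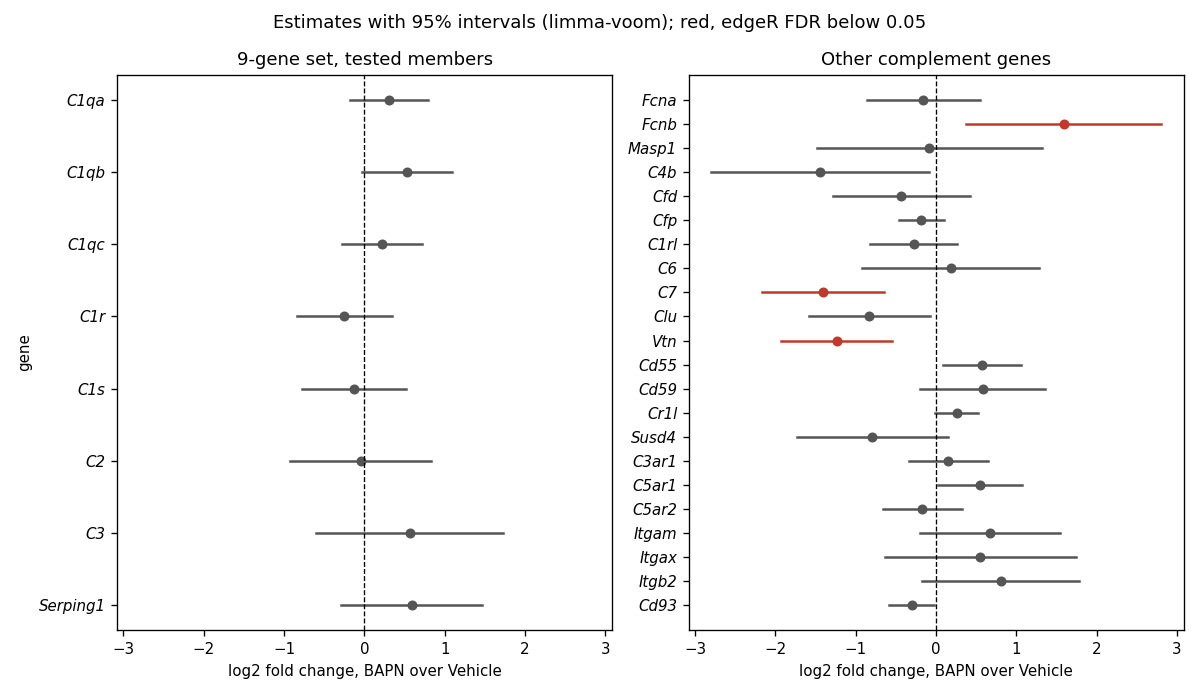
Log2 fold change of BAPN over vehicle from limma-voom (points) with 95% intervals (lines) for the 8 tested complement genes (left) and 22 other complement genes (right), n = 4 libraries per group. Red marks an edgeR FDR below 0.05, which none of the 8 genes and only Fcnb, C7 and Vtn among the others reached.

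The rest of the complement system was followed through 45 further genes grouped by role, of which 42 were in the files and 23 were tested. Of these 23, edgeR called 1 higher and 2 lower with BAPN and DESeq2 called 4, the fourth being Clu, with a median log2 fold change of -0.14. These are shares no larger than over all tested genes, where edgeR called 16.8% and DESeq2 27.4%. In the lectin route, 1 of 3 tested genes rose. It was Fcnb, a ficolin of myeloid cells, at 51.0, 15.9, 23.1 and 18.4 CPM across BAPN 1 to 4 and 3.93, 8.85, 11.95 and 9.60 CPM in vehicle 1 to 4. All BAPN libraries exceeded all vehicle libraries (log2 fold change 1.66, SE 0.54, edgeR FDR = 0.0330).

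Among the terminal components, 1 of 2 tested genes fell. C7, which anchors the membrane pore as it assembles, measured 425, 497, 178 and 506 CPM across BAPN 1 to 4 and 1156, 697, 993 and 1154 CPM in vehicle 1 to 4. No BAPN library reached the lowest vehicle value (log2 fold change -1.32, SE 0.34, edgeR FDR = 0.0276). Of 3 tested fluid-phase regulators, 1 fell, namely Vtn (vitronectin), which binds the forming pore complex, at 7.03 to 16.6 CPM in BAPN and 18.1 to 39.5 CPM in vehicle (log2 fold change -1.24, SE 0.31, edgeR FDR = 0.0325). These 3 calls were near the threshold, and each was lost with sex as a covariate (edgeR FDR 0.0691 for Fcnb, 0.0554 for C7 and 0.0755 for Vtn).

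None of the 4 tested classical and alternative components outside the set was called (median log2 fold change -0.40). C4b, which with C2 forms the classical C3-cleaving enzyme, measured 581, 329, 97.1 and 164 CPM across BAPN 1 to 4 and 956, 650, 239 and 1033 CPM in vehicle 1 to 4. The groups overlapped (log2 fold change -1.30, SE 0.60, edgeR FDR = 0.143). Reads that fit both C4b and its near copy C4a, which was below the level for testing, could make the value uncertain. This was not tested. Neither the 4 tested membrane regulators (median log2 fold change 0.38) nor the 7 tested receptors (median 0.33) held a called gene. Itgb2 and Itgam, the chains of complement receptor CR3, had log2 fold changes of 0.66 (SE 0.43, edgeR FDR = 0.236) and 0.56 (SE 0.39, edgeR FDR = 0.275). These were 0.39 and 0.32 without vehicle 4, and 0.94 and 0.87 without vehicle 2. In females alone that of Itgam turned sign (-0.048). Mbl1, C8a, C8b and Cpn1 were at 0 in every library, and Mbl2, Hc and Cd59b were not analysed here.

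Of 15 tested macrophage markers, 2 rose with BAPN (Aif1, log2 fold change 0.80, edgeR FDR = 0.0155, and Fcgr1a, 0.80, edgeR FDR = 0.0474) and none fell, with a median of 0.54, where 7.5% of all tested genes were called higher, and DESeq2 called 5. The call of Fcgr1a was lost with sex as a covariate (edgeR FDR = 0.0814). Their summed level was 4320, 3613, 4014 and 4555 CPM across BAPN 1 to 4 and 3274, 4102, 2805 and 2189.5 CPM in vehicle 1 to 4. The 3 highest, Cd68, Csf1r and Mrc1, had log2 fold changes of 0.54, 0.17 and 0.21 and none was called, and in females alone those of Cd68 and Csf1r turned sign (-0.055 and -0.047). That of Mrc1 turned without BAPN 1 (-0.054). No marker of that list was at 0.

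Of 11 tested fibroblast markers, 2 fell (Fbln1, log2 fold change -1.09, edgeR FDR = 0.0194, and Scara5, -0.77, edgeR FDR = 0.0424 and 0.0692 with sex as a covariate) and none rose, where 9.25% of all tested genes were called lower, with a median of -0.66 and sums of 15813 to 24869 CPM in BAPN and 20140 to 55022 CPM in vehicle. Col3a1 (-0.84), Col6a1 (-0.66) and Dcn (-0.30), the highest in mean CPM, were not called in edgeR, while DESeq2 called Col3a1 (FDR = 0.0273) and Col6a1 (FDR = 0.0386). Endothelial markers, of which Vwf (-1.99, and -1.13 without vehicle 1) and Tek (-1.24) fell among 7 tested (median -0.75), summed to 479 to 635 CPM in BAPN and 776 to 1534 CPM in vehicle, and Tie1 (-0.32) and Cdh5 (-0.97) were not called in edgeR, while DESeq2 called Cdh5 (FDR = 0.0194). Smooth muscle markers had 5 of 8 tested genes lower in edgeR (Myh11, log2 fold change -1.60, and Cnn1, Smtn, Lmod1 and Des, of which Cnn1, Smtn and Des lost the call with sex as a covariate) and a median of -1.12, with sums of 1662 to 4225 CPM in BAPN and 3218 to 5977 CPM in vehicle. Tagln (-0.64) and Acta2 (-0.75) were called by neither tool with all libraries, and without BAPN 2 they stood at -1.08 (edgeR FDR = 0.0412) and -1.28. The part of cell composition in the values of the complement genes was not tested.

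The members were set against these lists by the root mean square difference between centred log2 CPM profiles over the 8 libraries, a description with no test (0 means identical profiles, and the libraries share scaling and depth). From the mean macrophage profile, C1qa stood at 0.332, C1qb at 0.376 and C1qc at 0.363 (the macrophage markers themselves had a median of 0.342 and a range of 0.158 to 0.874, which took in all 8 members). C1r and C1s stood farther from it, at 0.56 and 0.579. From the mean fibroblast profile the order was turned, with C1r at 0.272 and C1s at 0.304 beside a median of 0.256 and a range of 0.138 to 0.811 for the fibroblast markers, and C1qa, C1qb and C1qc at 0.541, 0.662 and 0.522. A distance also grows with a gene's own spread, here the SD of log2 CPM. It was 0.356 for C1qa, 0.479 for C1qb, 0.352 for C1qc, 0.408 for C1r and 0.434 for C1s. C1qa and C1qc were thus about as far from the macrophage profile as from a flat one, so no likeness is read for them. C1qb lay nearer to the macrophage profile, and C1r and C1s to the fibroblast profile, than their own spread.

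The endothelial profile was also nearer to C1r (0.346) and C1s (0.413) than to the C1q chains (0.617 to 0.757). In single libraries the members departed from the marker profiles. In vehicle 4, the macrophage markers lay 0.64 below their 8-library mean on the log2 scale while C1qa and C1qc lay 0.09 and 0.14 above theirs. In BAPN 1, C1r and C1s lay 0.47 and 0.57 above their means with the fibroblast markers at -0.05. Serping1 did not group with C1r and C1s, at 0.928 from the fibroblast profile and 0.426 from the macrophage profile, beside an own spread of 0.662. Serping1 had its highest and lowest values in the same libraries, BAPN 4 and vehicle 4, as the summed CPM of the macrophage markers. The mean profile of these markers was highest in BAPN 1. C2 was nearest to the fibroblast profile (0.508, against 0.661 for macrophages and 0.593 for endothelium) and C3 was far from all 3 (0.721 to 0.974). C3 also had the widest spread of the members, at 0.906, so its distances are not read as unlikeness. Because spreads differed, the distances do not rank the members by likeness to a profile.

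**Figure D4:**
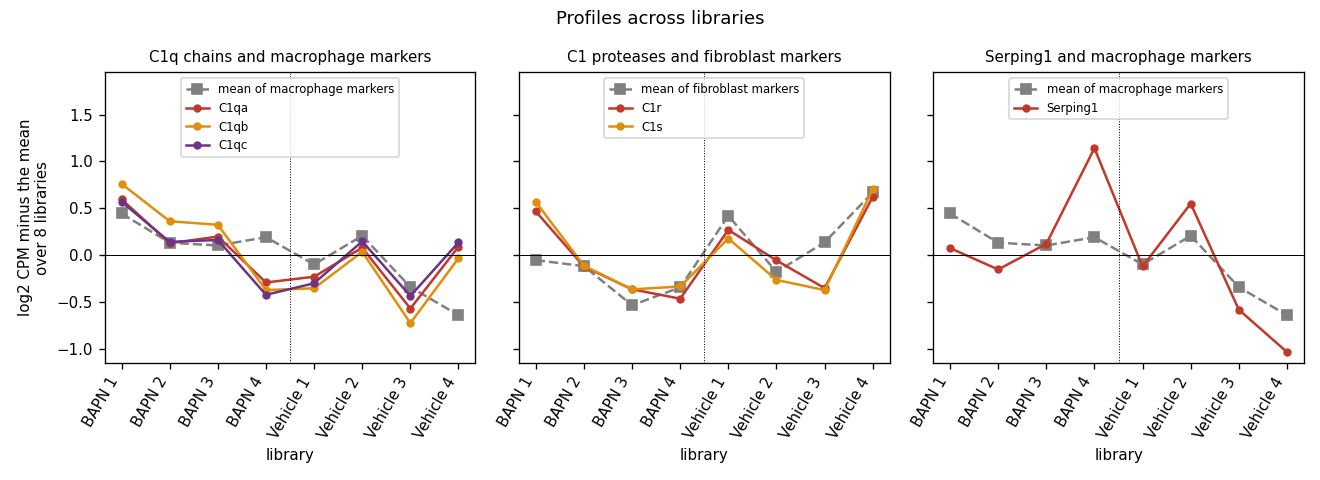
Log2 CPM minus the mean over 8 libraries (vertical axis) for the C1q chains, the C1 proteases and Serping1 (colours) and for the mean of the macrophage or fibroblast markers (grey squares), by library (horizontal axis, with a dotted line between the groups). Lines join the values of 1 profile and imply no order of the libraries. C1qa, C1qb and C1qc run together, C1r and C1s peak in vehicle 4 with the fibroblast markers at 0.67, and Serping1 departs from the macrophage markers in BAPN 4 at 1.14.

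By the same measure, the genes outside the set most like the mean of the C1q chains were Hmmr (0.10), Tigd2 (0.12), Top2a (0.15), Dlgap5 (0.16) and Kif11 (0.16), all over 8 libraries. Hmmr, for example, measured 14.1, 9.82, 10.8 and 7.95 CPM across BAPN 1 to 4 and 7.16, 10.2, 6.86 and 8.84 CPM in vehicle 1 to 4. None of these 5 was called between the groups. The mean of C1r and C1s was most like Erap1 (0.15), Erf (0.16), Lamb1 (0.16), Osmr (0.16) and Nfatc2ip (0.16), and Erap1 measured 111, 84.9, 80.3 and 80.9 CPM across BAPN 1 to 4 and 103, 87.5, 66.2 and 133 CPM in vehicle 1 to 4. None of these was called either. C2 stood at 0.30 from the mean of C1r and C1s, rank 476 of 11682 genes, while Serping1 and C3 stood at 0.89 and 0.75.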

How the data were processed

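RNA from outflow veins was measured in 8 rat libraries, grouped by the treatment, replicate and sex in the labels. The authors depleted ribosomal RNA, made stranded libraries and deposited whole-number counts of reads per Ensembl gene, without normalization. The submitters' processing notes name bcl2fastq 2.17, Trim Galore and STAR. The counter, its strand setting and the genome build are not given in the sources used here, so reads of overlapping or near-identical genes may be split or lost. No library repeated another of its group (chi-square per degree of freedom 68.58 to 320.8).

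As in the study's methods, testing was limited to genes whose base mean (counts over DESeq2 size factors) reached 100. No covariates were used. The test was edgeR 4.0.16 (TMM, quasi-likelihood F test) in R 4.3.3, with limma 3.58.1 (voom) for errors and DESeq2 1.42.0 as an alternative. The steps were tested on simulated data. The prior count in log2 profiles was 2. Exact permutation tests used all 70 arrangements of log2 CPM, two-sided, with a smallest p of 0.0286.

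The members and lists were chosen with earlier results of these data known. Named were all 9 members, other complement genes called or among the 5 highest in CPM, the 3 tested genes highest in CPM of each marker list and of the interferon list, and the 5 genes most alike by profile. A pair of genes that this rule names are not reported here. Other called markers, Clu, genes at 0, ratios between chains, distances to marker lists and the split by sex were chosen after the values were seen. Alternatives were other tests, scalings and filters, sex as a covariate, females alone, a replicate block, libraries thinned to the smallest total, and leaving out 1 library at a time. Lists were macrophage, fibroblast, smooth muscle, endothelial, T cell, B and plasma cell, neutrophil, adipocyte, skeletal muscle and epithelial markers, interferon response genes and other complement. Timd4, Pecam1, Trac, Myh1 and Myh2 were not analysed here.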

Additional observations from a re-analysis of the deposited data

Results flagged for a closer look

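Serping1 in BAPN 4, the male of that group, stood at 6453.9 CPM, while BAPN 1 to 3 lay between 2632 and 3180.3 CPM. Its gap to the nearest library was 0.857 of the group's range, above the limit of Dixon's test for 4 samples. Of 16 sets of 4 libraries (8 genes in 2 groups) it was the 1 marked in this way, and chance marks about 1 in 20. Without BAPN 4 the log2 fold change of Serping1 was 0.19. The cause was not tested.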

How the results depend on the processing

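None of the 8 tested complement genes was called under any of 18 alternatives, the replicate block included (0 called), with edgeR or DESeq2 FDR from 0.0679 (C1qb without BAPN 4) upward. Over all tested genes the count was less stable. Against 1957 called (876 higher, 1081 lower), DESeq2 called 3202 (1439 higher, 1763 lower), sex as a covariate 930 (389 and 541), females alone 89 (35 and 54), and the replicate block 556 (200 and 356). Scaling by total counts only left 504 higher and 1161 lower, 30.3% higher against 44.8%. Leaving out 1 library gave 397 (without vehicle 1) to 2215 (without vehicle 2), with 150 to 927 higher and 247 to 1288 lower. The causes were not tested.

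Among single genes the sign turned in females alone for C1s (0.11), C2 (0.017), Serping1 (-0.23), Itgam (-0.048), Cd68 (-0.055) and Csf1r (-0.047). With 1 library left out it also turned for C1s (range -0.39 without BAPN 1 to 0.12 without vehicle 4), C2 (-0.41 without BAPN 1 to 0.23 without vehicle 4, and 0.11 without BAPN 3), Mrc1 (-0.054 without BAPN 1 to 0.35 without BAPN 4), Cd4 (-0.18 to 0.081), Csf3r (-0.053 to 0.49), S100a9 (-0.071 to 0.74, and -0.033 without BAPN 1), Pparg (-0.40 to 0.054, and 0.027 without BAPN 1) and Tnnt3 (-0.071 to 0.27, and -0.044 without BAPN 2). The calls of Fcnb, C7 and Vtn were lost in females alone (edgeR FDR 0.105, 0.135 and 0.196) and with the replicate block (0.12, 0.065 and 0.0591), and when 1 library was left out they held in 3, 4 and 2 of 8 fits, with edgeR FDR between 0.0227 and 0.0848. Of 19 called marker and interferon genes (Cd79b and Mzb1 not counted), 19 kept their call with DESeq2, 15 with total counts only, 8 with sex as a covariate (0 of the 5 interferon genes), 6 with the replicate block, 1 in females alone and 6 to 16 with 1 library left out. Deviations of same-numbered libraries from their group means were weakly related (r of 0.094, -0.265, 0.269 and -0.14 for numbers 1 to 4). This showed no clear pairing by number and cannot exclude it. The difference in the C1q to C1r and C1s ratio ranged from 0.41 to 0.69 when 1 library was left out. With 4 libraries a group, the intervals of the members left changes of moderate size undetectable.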

Other observations

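Interferon response genes were higher in BAPN veins where they were called. edgeR called 5 of 22 tested genes higher and none lower, and all 22 had log2 fold changes above 0 (median 0.70, beside 0.02 over all tested genes, of which 7.5% were called higher). All 5 calls were lost with sex as a covariate (edgeR FDR 0.0624 to 0.0887). They were Irf1 (0.57, FDR = 0.0300), Ifit3 (1.70, FDR = 0.0353), Usp18 (0.99, FDR = 0.0464), Psmb9 (0.82, FDR = 0.0299) and Cxcl10 (2.01, FDR = 0.0371). The summed level was 2246, 3688, 1579.7 and 1726 CPM across BAPN 1 to 4 and 1016, 1424, 1248 and 1628 CPM in vehicle 1 to 4, highest in BAPN 2. Mx2 (log2 fold change 1.43) and Irf7 (0.74), among the highest in CPM, were not called in edgeR. BAPN 2 carried much of the values of 5 of the named genes. Without it the log2 fold changes were 0.032 for Irf7, 0.81 for Mx2, 1.40 for Cxcl10, 1.09 for Ifit3 and 0.58 for Usp18. Those of Irf1 (0.53) and Psmb9 (0.83) changed little without BAPN 2. C1qa, C1qb, C1qc, C1r, C1s, C2, C3 and Serping1 did not have their highest value in BAPN 2.

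Of 8 tested T cell markers, Cd8a (log2 fold change 1.33, edgeR FDR = 0.0281) and Cd2 (1.38, edgeR FDR = 0.0138) rose and none fell, where 7.5% of all tested genes were called higher and 9.25% lower. The call of Cd8a was lost with sex as a covariate (edgeR FDR = 0.0649). Cd4 (-0.07) and Lck (0.85) were not called in edgeR and DESeq2 called Lck (FDR = 0.0494). The list had a median log2 fold change of 1.17, with 7 genes above 0 and 1 below. It summed to 381 to 465 CPM in BAPN and 306 to 521 CPM in vehicle, most of it Cd4 (means 334 and 350 CPM). Of 7 B cell and plasma cell markers, Cd79b, Mzb1 and Jchain passed the filter on low values, Cd79b and Mzb1 through the BAPN libraries only (vehicle means of 0.913 and 0.866 CPM), so no change is read from their calls. The list summed to 156, 196, 222 and 7.12 CPM across BAPN 1 to 4 and 12.2 to 38.3 CPM in vehicle, so BAPN 4 did not share the higher level. Of 6 tested adipocyte markers, Plin1 fell (log2 fold change -2.13), and Adipoq (-1.61), Lipe (-0.90) and Pparg (-0.10) were not called in edgeR, while DESeq2 called 5 of the 6, Adipoq (FDR = 0.00823) and Lipe (FDR = 0.0178) among them (median -1.36, sums 78.4 to 110.3 CPM in BAPN and 109 to 289 CPM in vehicle). The tested neutrophil (Csf3r and S100a9), skeletal muscle (Tnnt3 and Acta1) and epithelial and mammary markers (Krt8 and Cdh1) were 2 in each list, and none was called in edgeR, with list sums of 28.2 to 66.6, 16.1 to 30.0 and 4.20 to 39.7 CPM in BAPN and 20.5 to 54.0, 17.1 to 69.7 and 4.97 to 25.8 CPM in vehicle. DESeq2 called Acta1 (log2 fold change -2.52, FDR = 0.0441), whose edgeR value was -2.50 and, without vehicle 2, -1.32.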
